A study of Mus musculus with 12 samples.

Results

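Transcripts of iron handling and ferroptosis were followed in sorted mouse hematopoietic stem and progenitor cells: Tfrc, Fth1, Ftl1, Ncoa4, Slc7a11, Slc3a2, Gpx4, Aifm2, Acsl4 and Acsl3. They were chosen by name and not by their values, though with earlier results of these data known, as 10 of the 35999 genes in the table of normalized counts. RNA came from LSK cells (lineage-negative, Sca-1-positive, KIT-positive bone marrow cells) of 12 mice, with 1 library per mouse. Of these, 6 were labelled WT and 6 Fancg KO, a Fancg-/- line used as a model of Fanconi anemia. No library was treated, and the age, sex and strain of the mice are not given in the sources used here. The comparison bears on the question, raised in the study with human cells, of how cells lacking the Fanconi pathway handle lipid peroxidation.

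Cells take up iron as transferrin bound to the transferrin receptor (Tfrc), store it inside a shell of ferritin heavy and light chains (Fth1, Ftl1) and release it when Ncoa4 carries ferritin to the lysosome. Ferroptosis is a form of cell death in which iron drives the peroxidation of membrane phospholipids. Cystine enters through the Slc7a11/Slc3a2 exchanger and feeds glutathione, which Gpx4 uses to reduce lipid peroxides, while Aifm2 (FSP1) regenerates ubiquinol as a separate defence. Acsl4 activates polyunsaturated fatty acids for the phospholipids that peroxidize, and Acsl3 activates mainly monounsaturated ones. Hematopoietic progenitors need iron for heme and for DNA synthesis, and much of the control of Tfrc and ferritin is post-transcriptional.

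That control runs through iron-responsive elements, short hairpins in the untranslated regions that iron regulatory proteins bind when iron is scarce. In the 5′ UTR of ferritin mRNA they block translation, and in the 3′ UTR of Tfrc they protect the mRNA from decay. Levels given here are of mRNA, not of protein. The elements found in the members describe sequence only, and whether the level or use of a transcript depends on iron was not tested. Each is 27 bases of the annotated transcript in build GRCm38 (GENCODE M21), printed 5′ to 3′ on the strand of the gene, with the bulged C and the CAGTG of the loop in capitals.
Fth1, 5′ UTR, chr19:9982733-9982759, plus strand: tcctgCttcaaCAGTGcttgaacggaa
Ftl1, 5′ UTR, chr7:45459780-45459806, minus strand: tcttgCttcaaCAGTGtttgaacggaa
Tfrc, 3′ UTR, chr16:32631220-32631246, plus strand: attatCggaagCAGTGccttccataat
Tfrc, 3′ UTR, chr16:32631599-32631625, plus strand: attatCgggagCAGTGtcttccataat
Tfrc, 3′ UTR, chr16:32631664-32631690, plus strand: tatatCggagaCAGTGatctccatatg
Tfrc, 3′ UTR, chr16:32631711-32631737, plus strand: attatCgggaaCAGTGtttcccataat

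The search asked for a C, any 5 bases, CAGTG, 1 base other than G and 5 bases pairing with the first 5, with G-T pairs allowed, on the transcript strand only. It found an element in 17 of 20051 5′ UTRs, or 0.0848%, and in 84 of 20587 3′ UTRs, or 0.408%, of the principal transcripts. The elements of Fth1 and Ftl1 were identical at 25 of 27 positions. The Fth1 element shared between 9 and 11 positions with the 4 elements found in Tfrc, which shared between 17 and 25 with each other. Elements with another loop or an unpaired base in the stem were not sought, so the list may be incomplete. The remaining 7 members held no match in their untranslated regions under this rule. A match is a description of the letters and was not tested for binding.

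Values are called signal here. They were taken, from the name and values of the deposited data, as estimated read counts divided by a size factor for each library. The sources used here do not state the normalization of the mouse libraries. Total signal ran from 1576081 to 2672915 per library, about 1235086 to 2471271 reads judged from the step between low values, and 14206 to 16460 genes were above 0. A single gene, Lars2, which encodes a mitochondrial ligase, was assigned 15.6% to 36.2% of the signal, with similar ranges in both groups. Sequence shared between Lars2 and other transcripts was not examined, so whether these reads come from its mRNA was not tested. Of the 10 transcripts listed for LSK cells, 9 had a mean signal of at least 10, among them Kit (343), Cd34 (620) and Flt3 (423), while Procr was lower at 5.81. Ly6a, the gene of Sca-1, was barely above that limit, at a mean of 10.8 and a range of 4.84 to 17.4. Slamf1 was also low, at a mean of 14.6. Fancg itself did not separate the labels. Its signal was 4.76, 8.59 and 24.1 (lowest, median, highest) in WT and 4.46, 7.91 and 14.5 in KO libraries (exact permutation test, two-sided p = 0.636). The part of Fancg that the allele removes is not given in the sources used here, so this level does not check the labels, and libraries are named as labelled. WT replicate 3 and KO replicate 7 stood apart from the other 10 in their Y-linked transcripts, whose values are not given here. The fit without both is given for Tfrc and Fth1, and for Ncoa4, where it turned the direction.

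Per kilobase of transcript, ferritin stood far above the other members. Over the 12 libraries the mean signal per kilobase was 249 ± 37.5 (SD) for Fth1 and 178 ± 32.2 for Ftl1, against 54.5 ± 19.5 for Gpx4. Each of these was below the gene ranked before it in all 12 libraries. Acsl4 (median 14.8, lowest 11.1), Slc3a2 (median 14.0, lowest 11.3) and Ncoa4 (median 14.5, lowest 9.31) formed a middle group whose order changed from library to library, with the lower-ranked gene below its neighbour in 7 of 12 libraries for both steps. Tfrc followed at 6.15 ± 1.15, below Ncoa4 in all 12 libraries, and Acsl3 at 5.13 ± 2.21, below Tfrc in 8. Slc7a11 was low at 1.32 ± 0.261, below Acsl3 in all 12 libraries. Aifm2 was lowest at 0.858 ± 0.928, below Slc7a11 in 11. Slc3a2, which also pairs with other amino acid transporters, thus stood above its partner Slc7a11 per length.

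**Figure D1:**
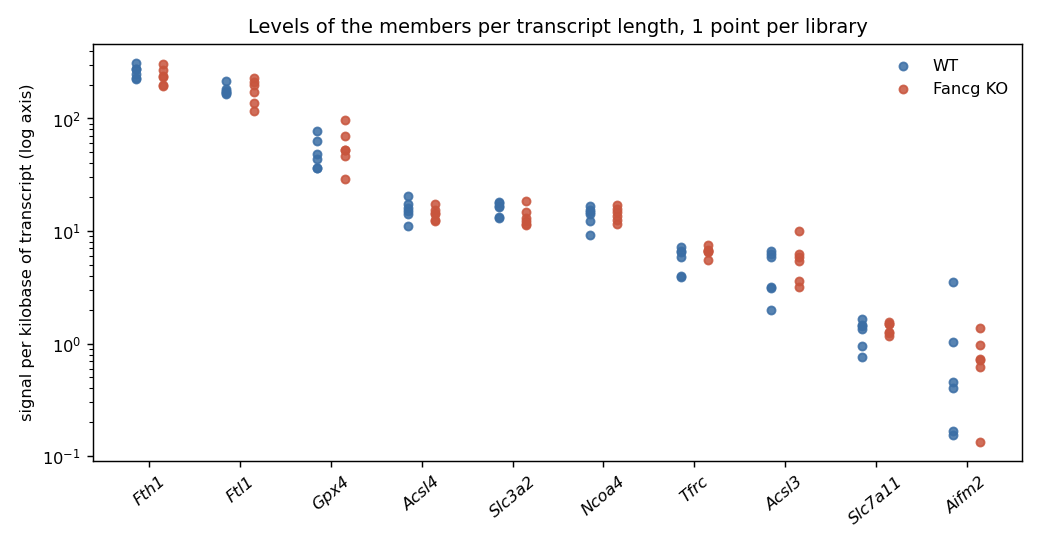
Signal per kilobase of the principal transcript (log axis) for the 10 members, 1 point per library, WT blue and Fancg KO red. Fth1 and Ftl1 lie at the top and Slc7a11 and Aifm2 at the bottom in both genotypes, and Acsl4, Slc3a2 and Ncoa4 share a range.

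No member passed the test of KO against WT libraries, and the ranges of both genotypes overlapped for all 10. Genes were tested where their signal averaged at least 10, which left 8887. Overlap was the rule among them, since only 8 of the 8887 had ranges that did not overlap. Of the 8887, 326 had an unadjusted p under 0.05 with limma, which is 3.67% of the genes tested. Adjusted, 0 had a p under 0.05, which is 0% (smallest adjusted p = 0.9996). Among the 9 members that passed the filter, 0 had an unadjusted p under 0.05 and the adjusted p was 0.9996 for each. Of these 9, 5 had a higher mean log2(signal + 1) in KO libraries and 4 a lower one. The median log2 fold change of the 9 was 0.05, and that of all genes tested was 0.003. For 8 of the 9, the 95% confidence interval lay within a fold of 2 in either direction. That share was not counted over all genes tested, whose median standard error was 0.24, against 0.17 for the 9 members. The p-values cover the spread between 6 mice per genotype. In bulk RNA, fewer cells of a type and less RNA per cell cannot be told apart.

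**Figure D2:**
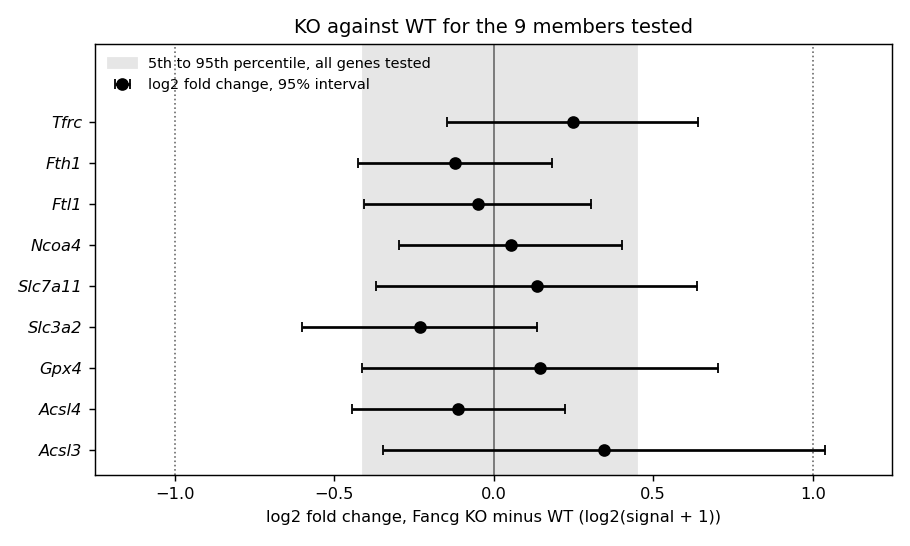
Log2 fold change of KO over WT (x axis, on the log2(signal + 1) scale) for the 9 members tested, with 95% confidence intervals from limma. The shaded band holds the 5th to 95th percentile of all 8887 genes (-0.41 to 0.45), dotted lines mark a fold of 2, each interval spans 0, and that of Acsl3 alone passes a dotted line.

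Iron uptake was represented by Tfrc (chr16:32608920-32632794). Its signal was 19.0, 30.2 and 35.2 (lowest, median, highest) in WT and 27.2, 32.7 and 36.7 in KO libraries. The lowest values of all were WT replicates 4 and 6, at 19.0 and 19.6, and the other 10 libraries lay between 27.2 and 36.7. The means were 27.8 ± 6.86 and 32.4 ± 3.09 (SD, n = 6 each), a fold of 1.19 with a 95% interval of 0.904 to 1.56 (limma p = 0.199; exact permutation test, two-sided p = 0.190). The groups overlapped, and the KO value was above the WT value in 27 of the 36 combinations of a KO with a WT library. The log2 fold change of Tfrc moved from 0.25 to 0.33 without WT replicate 3 and KO replicate 7.

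Ferritin makes up the storage shell, with Fth1 (chr19:9980598-9985098) carrying the ferroxidase activity and Ftl1 (chr7:45457944-45459884) helping the iron core to form. Fth1 signal was 206, 241 and 289 in WT and 179, 219 and 281 in KO libraries. The lowest values were KO replicates 2 and 3, at 186 and 179, and the rest of the KO range lay inside or near that of WT. The means were 241 ± 31.2 and 223 ± 38.7 (SD, n = 6 each), a fold of 0.919 with an interval of 0.745 to 1.13 (limma p = 0.407; exact permutation test p = 0.348). The log2 fold change of Fth1 moved from -0.12 to -0.23 without WT replicate 3 and KO replicate 7. Ftl1 signal was 158, 167 and 207 in WT and 112, 180 and 221 in KO libraries. The KO libraries spread more widely on both sides, from replicate 2 at 112 to replicate 4 at 221, while 5 of the 6 WT libraries lay between 158 and 176. The means were 173 ± 17.6 and 171 ± 42.7, a fold of 0.966 with an interval of 0.755 to 1.24 (limma p = 0.768; exact permutation test p = 0.762). The sign of the Ftl1 difference turned when WT replicate 6, KO replicate 2 or KO replicate 3 was left out.

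Release of stored iron depends on Ncoa4 (chr14:32159865-32179855), the receptor that delivers ferritin to autophagosomes. Its signal was 37.8, 59.0 and 67.6 in WT and 46.8, 57.9 and 69.2 in KO libraries, and the medians of both groups nearly coincided. The means were 56.0 ± 10.6 and 57.7 ± 8.39, a fold of 1.04 with an interval of 0.814 to 1.32 (limma p = 0.749; exact permutation test p = 0.738). WT replicate 3 was the lowest library, at 37.8. Without it the log2 fold change moved from 0.05 to -0.05, and without both WT replicate 3 and KO replicate 7 it was -0.08.

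Cystine import combines the transport subunit Slc7a11 (chr3:49892526-50443614) with the heavy chain Slc3a2 (chr19:8706882-8723369) that brings it to the membrane. Slc7a11 signal was 7.07, 12.9 and 15.4 in WT and 10.8, 12.7 and 14.3 in KO libraries, so the KO range lay inside that of WT. The lowest values, 7.07 and 8.73, were WT replicates 6 and 7. The means were 11.7 ± 3.15 and 12.6 ± 1.52, a fold of 1.10 with an interval of 0.775 to 1.55 (limma p = 0.578; exact permutation test p = 0.465). Slc3a2 signal was 23.9, 30.0 and 33.1 in WT and 20.5, 22.9 and 33.5 in KO libraries. In 4 of the 6 KO libraries it was below the lowest WT value, and KO replicate 5 held the highest value of all. The means were 28.9 ± 4.03 and 24.6 ± 4.93, a fold of 0.851 with an interval of 0.659 to 1.10 (limma p = 0.200; exact permutation test p = 0.108). The KO value was the higher in 8 of 36 combinations, and the difference did not pass the test.

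Lipid peroxides are reduced by the selenoprotein Gpx4 (chr10:80047166-80056439). Its signal was 34.7, 44.3 and 74.0 in WT and 27.7, 50.5 and 93.0 in KO libraries. The KO range reached past the WT range at both ends, with replicate 2 lowest and replicate 6 highest. The means were 48.9 ± 15.6 and 55.6 ± 22.3, a fold of 1.11 with an interval of 0.751 to 1.63 (limma p = 0.589; exact permutation test p = 0.628). Without KO replicate 6 the log2 fold change moved from 0.15 to -0.02. In the 4 libraries numbered 2 and 3 the Gpx4 signal was 27.7 to 44.6 and the Lars2 share 15.6% to 19.0%, against 42.2 to 93.0 and 24.7% to 36.2% in the other 8, and the part of that share in the Gpx4 level was not tested.

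Gpx4 shares sequence with a processed copy that is counted as a gene of its own. Of the 31-base stretches of Gpx4-ps2, 89.3% occur in Gpx4 transcripts, and Gpx4-ps2 had a signal between 3.35 and 32.4. In KO replicate 2, where Gpx4 was lowest, Gpx4-ps2 stood at 32.4, above the Gpx4 signal of 27.7, and in KO replicate 6, where Gpx4 was highest, it stood at 3.35. How reads were divided between both is therefore uncertain. Summed over both, the signal was 44.1, 55.4 and 80.9 in WT and 55.5, 72.6 and 96.4 in KO libraries. The means of the sum were 61.1 ± 15.7 in WT and 73.8 ± 15.7 in KO libraries (SD, n = 6 each), a fold of 1.21 (exact permutation test, two-sided p = 0.167). The groups still overlapped, with the KO value higher in 27 of 36 combinations. By replicate number, which the labels do not call a pairing, the sum was higher in KO in all 6 pairs, against 4 for Gpx4 alone. The test of these pairs is given in the last section. Among copies of ferritin, Ftl1-ps1 shares 63.5% of its 31-base stretches with Ftl1 but had a mean signal of 3.06, and sums of Ftl1 or Fth1 with their named pseudogenes gave folds of 0.970 and 0.917.

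Aifm2 (chr10:61715263-61739260), the ubiquinone reductase, had a mean signal of 2.65, under the minimum for the test across genes. Its signal was 0.478, 1.32 and 10.9 in WT and 0.411, 2.23 and 4.26 in KO libraries. The value of 10.9 was WT replicate 3, and all others were between 0.411 and 4.26, which corresponds to a few reads per library. The groups overlapped (exact permutation test p = 0.874), and a difference was not detectable at this depth.

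Acyl-CoA synthetases decide which fatty acids enter phospholipids, Acsl4 (chrX:142317993-142390535) favouring arachidonate. Its signal was 58.8, 81.5 and 108 in WT and 64.7, 75.8 and 91.3 in KO libraries, so the KO range lay inside that of WT. The means were 82.7 ± 16.8 and 75.7 ± 9.90, a fold of 0.926 with an interval of 0.734 to 1.17 (limma p = 0.490; exact permutation test p = 0.450). Acsl3 (chr1:78657825-78707743) had a signal of 7.88, 18.0 and 26.4 in WT and 12.6, 22.3 and 39.6 in KO libraries. In both genotypes its values were spread over a fold of more than 3, with KO replicate 4 highest and WT replicate 3 lowest. The means were 17.9 ± 7.86 and 22.6 ± 9.65, a fold of 1.27 with an interval of 0.786 to 2.05 (limma p = 0.306; exact permutation test p = 0.398). Acsl3 had the largest log2 fold change of the 9 members tested, 0.35, and also the largest standard error, 0.33.

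**Figure D3:**
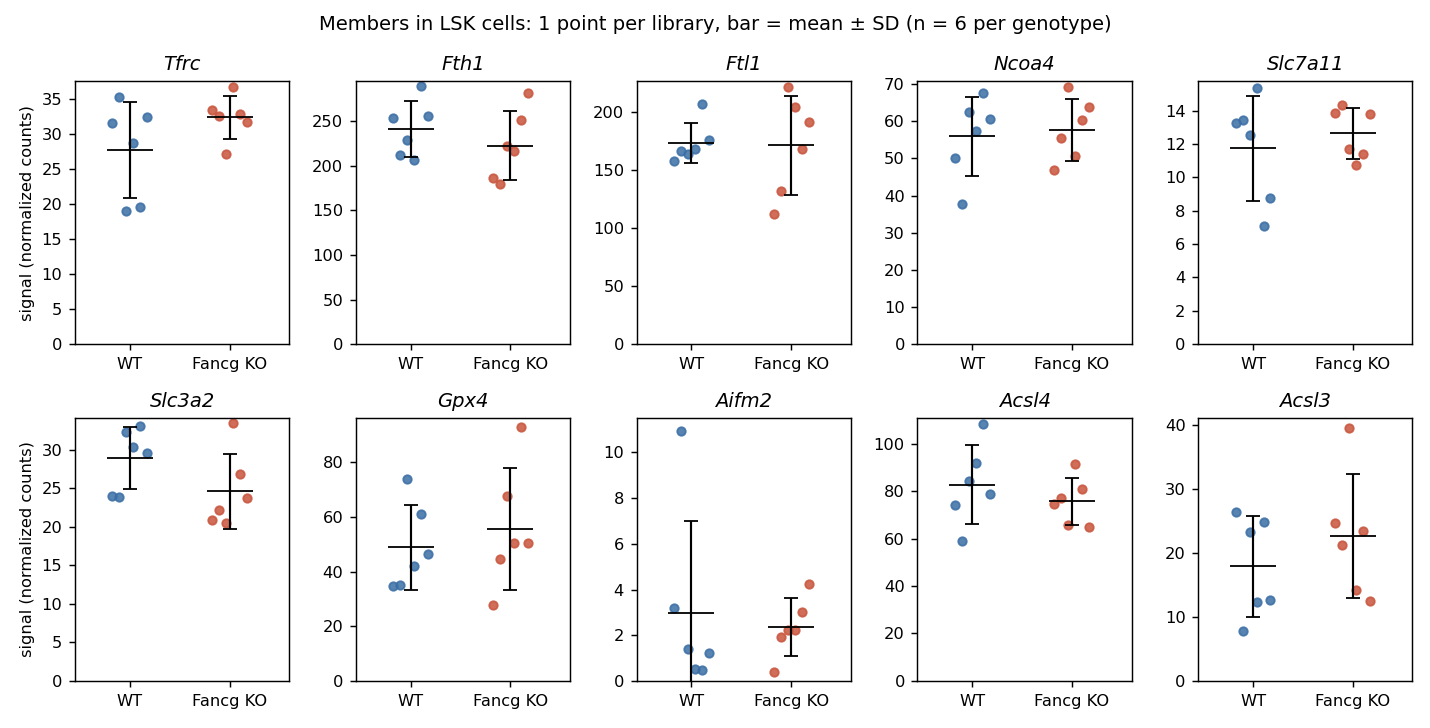
Signal of the 10 members (y axis, normalized counts, from 0) in the 6 WT and 6 Fancg KO libraries, 1 point per library placed by replicate number, with mean ± SD as bars. The genotypes overlap in every panel, the widest spread relative to the mean is that of Aifm2, whose lower WT bar ends at the axis, and Tfrc shows WT replicates 4 and 6 apart at 19.0 and 19.6.

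How much of the spread between mice could be counting error differed among members. At the median of about 226 reads per library for Fth1, counting alone would give a coefficient of variation of 6.65%, against 12.9% measured in WT and 17.4% in KO libraries. For Gpx4 these values were 14.0%, 31.9% and 40.1%, and for Acsl3 22.2%, 43.9% and 42.6%. For Slc7a11, with about 12.2 reads per library, counting alone would give 28.6%, which was as large as the 26.8% in WT and larger than the value in KO libraries. For Tfrc it would give 18.2%, between the 24.7% of WT and the 9.54% of KO libraries. Reads are approximate, and these values leave out every other source of error.

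Ratios were taken within a library from log2(signal + 1), where the added 1 leaves them slightly dependent on its size factor, and are given as descriptions with no test. The log2 ratio of Tfrc to Fth1, the uptake receptor over the storage protein, was -3.10 ± 0.47 in WT and -2.73 ± 0.30 in KO libraries (SD, n = 6 each). It was higher in KO in 26 of 36 combinations, and the groups overlapped, WT spanning -3.81 to -2.56 and KO -3.11 to -2.42. The ratio of Fth1 to Ftl1 was 0.47 ± 0.14 in WT and 0.40 ± 0.29 in KO libraries, with KO the higher in 18 of 36. The ratio of Slc3a2 to Slc7a11 was 1.26 ± 0.52 in WT and 0.90 ± 0.39 in KO libraries, with KO the higher in 7 of 36. The ratio of Acsl4 to Acsl3 was 2.24 ± 0.55 in WT and 1.78 ± 0.65 in KO libraries, with KO the higher in 10 of 36. The ratio of Gpx4 to Acsl4 was -0.78 ± 0.33 in WT and -0.52 ± 0.60 in KO libraries, with KO the higher in 22 of 36. None of the 5 ratios separated the genotypes.

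**Figure D4:**
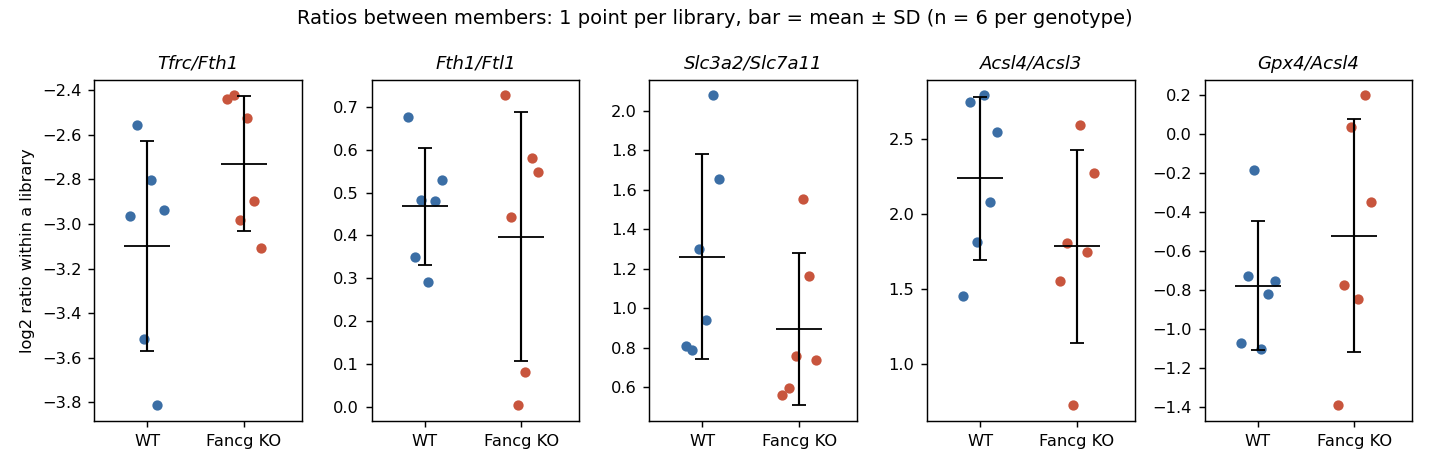
Log2 ratio between members within a library (y axis, log2(signal + 1) of the first gene minus that of the second), 1 point per library, with mean ± SD for 6 WT and 6 Fancg KO libraries. In each of the 5 panels the genotypes overlap, with the Acsl4/Acsl3 means furthest apart, at 2.24 in WT and 1.78 in KO.

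Members were also compared with each other across the 12 libraries after the genotype means had been removed. The design listed 6 pairs, with 100000 permutations within genotype and adjustment over the 6 pairs. Fth1 and Ftl1 tended to vary together, with Pearson's r = 0.63 (permutation p = 0.0641, adjusted 0.179) and Spearman's rho = 0.62 (permutation p = 0.0603, adjusted 0.137). Without the 2 libraries farthest from the median of Fth1, r was 0.53. Ncoa4 and Fth1 gave r = 0.55 (permutation p = 0.0680, adjusted 0.179) and rho = 0.58 (permutation p = 0.0588, adjusted 0.137), with r = 0.39 without the 2 farthest libraries. Slc7a11 and Slc3a2 gave r = -0.48 (permutation p = 0.0895, adjusted 0.179) and rho = -0.59 (permutation p = 0.0684, adjusted 0.137), with r = -0.43 without the 2 farthest. Tfrc with Fth1, Acsl3 with Acsl4 and Gpx4 with Aifm2 gave r of -0.26, 0.28 and -0.03 and rho of -0.19, 0.15 and 0.007, with adjusted permutation p of 0.522, 0.522 and 0.933 for r and 0.775, 0.800 and 0.992 for rho. Without the 2 farthest libraries their r was -0.15, 0.16 and -0.52. No pair passed the adjusted threshold on the deposited scale. When each library was instead scaled to its total signal, which gives both genes of a pair a common divisor, Fth1 with Ftl1 gave r = 0.86 (adjusted permutation p = 0.00372) and Ncoa4 with Fth1 r = 0.87 (adjusted permutation p = 0.00216). The same scaling turned the sign for Slc7a11 with Slc3a2, to 0.26, and for Tfrc with Fth1, to 0.31.

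Of the other 8886 genes tested, those whose deviations followed a member most closely over the 12 libraries are given as a description. For Tfrc these were Prdm11 (r = 0.88), Bsn (0.87) and Krit1 (0.83). For Fth1 they were Lgals9, Psmb6 and Ndufa10, each at 0.92. For Gpx4 they were Snrpd2 and Stom, both at 0.94, and Ccdc93 at 0.93. Within a library all genes share the same size factor, and the highest of so many coefficients is high by selection.

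The wider pathway was covered by 82 genes in 11 classes, of which 57 passed the filter and 25 did not. Of the 57, 0 had an unadjusted p under 0.05 in either direction, against 3.67% of all genes tested. The mean of log2(signal + 1), on which genes are called higher or lower here, was higher in KO for 31 and lower for 26, the log2 fold changes ran from -0.35 to 0.44, and their median was 0.02. For 52 of the 57 the 95% interval lay within a fold of 2, a share that was not counted over all genes tested. The adjusted p was 0.9996 for each of the 57 (limma). Below, the most abundant gene of 10 of the 11 classes is given as mean ± SD over 6 WT and then 6 KO libraries, with its log2 fold change (KO minus WT) and standard error.

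Among the iron genes, 6 of 9 transport genes were tested, with 4 higher and 2 lower in KO. The most abundant, the iron chaperone Pcbp2, had a signal of 239 ± 32.4 in WT and 232 ± 51.2 in KO libraries (log2 fold change -0.06, SE 0.16). Slc40a1, the only known iron exporter, had a mean signal of 0.436. Of 4 iron sensing genes 2 were tested, 1 in each direction. Ireb2, an iron regulatory protein that binds elements like those printed above, was at 126 ± 8.81 in WT and 131 ± 11.4 in KO (log2 fold change 0.05, SE 0.12), while Aco1, the other such protein, had a mean of 4.57. In mitochondrial iron and iron-sulfur cluster biology 6 of 9 genes tested were higher in KO and 3 lower, with Cisd2, a cluster protein of the outer mitochondrial and endoplasmic reticulum membranes, at 82.6 ± 11.3 and 91.9 ± 23.1 (log2 fold change 0.13, SE 0.17). The log2 fold changes of the 3 heme genes tested, of 6 listed, were above 0, with a median of 0.19, and none passed the test. The most abundant, Alas1, which makes the first intermediate of heme, varied widely, at 82.0 ± 67.0 and 81.2 ± 48.2 (log2 fold change 0.19, SE 0.43), so that its mean signal was slightly lower in KO and its mean log2 value higher.

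Among the antioxidant genes, 2 of the 6 glutathione genes tested were higher and 4 lower in KO. Gpx1, the abundant cytosolic glutathione peroxidase, had a signal of 287 ± 45.9 in WT and 266 ± 75.4 in KO libraries (log2 fold change -0.14, SE 0.19). Chac1, which degrades glutathione under stress, was at 0 in all 12 libraries. In the NRF2 and thioredoxin class 3 of 7 were higher and 4 lower, with thioredoxin reductase Txnrd1 at 179 ± 30.0 and 150 ± 16.9 (log2 fold change -0.24, SE 0.14). All 6 genes of ubiquinone, pterin and vitamin K reduction were tested, 3 in each direction.

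In lipid remodelling and oxidation 7 of 14 genes were tested, with 4 higher and 3 lower in KO. The desaturase Scd2, which makes monounsaturated fatty acids, was at 255 ± 66.3 and 253 ± 49.1 (log2 fold change 0.01, SE 0.19). Its relative Scd1 had a mean of 0.269 and the lipoxygenase Alox15 a mean of 0.0488. All 6 ferritin autophagy genes were tested, 2 higher and 4 lower, with Map1lc3b, a coat protein of autophagosomes, at 138 ± 20.1 and 132 ± 19.8 (log2 fold change -0.07, SE 0.14). Of 5 p53-linked genes 3 were tested, 1 higher and 2 lower, with Trp53 at 173 ± 30.6 and 162 ± 29.5 (log2 fold change -0.09, SE 0.16). Both mitochondrial channel genes were higher in KO, with Vdac3 at 95.1 ± 23.8 and 97.3 ± 21.8 (log2 fold change 0.03, SE 0.19). No class held a gene that passed the test.

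**Figure D5:**
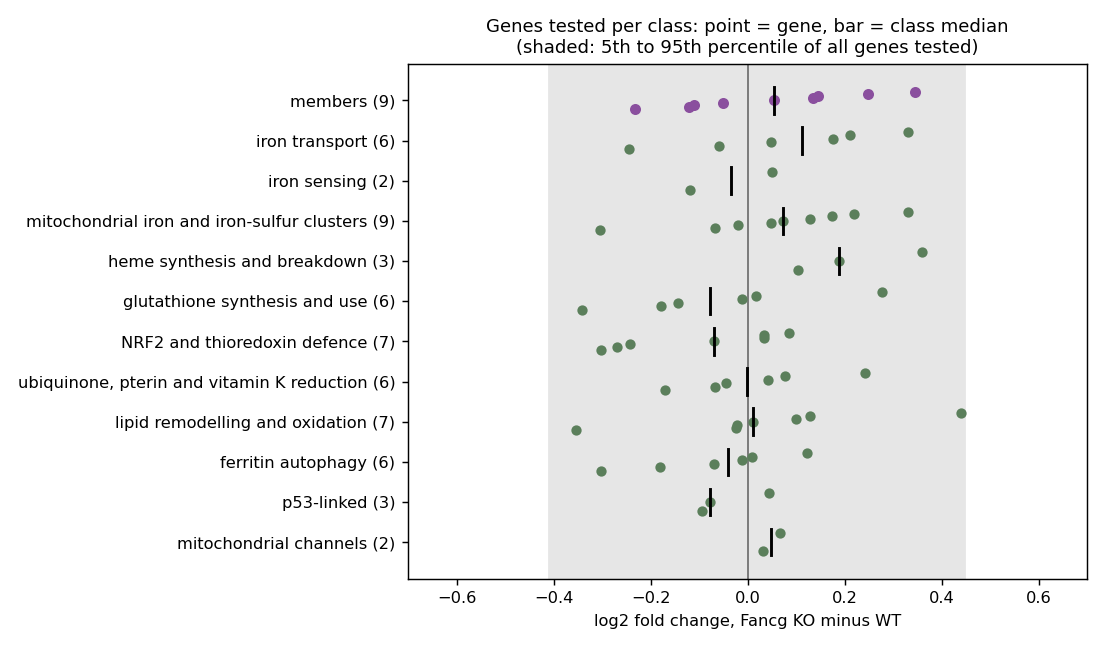
Log2 fold change of KO over WT (x axis) for the 9 members and 57 pathway genes tested, 1 point per gene, by class, with the class median as a bar and the number of genes tested in parentheses. All points lie inside the shaded 5th to 95th percentile of all genes tested (-0.41 to 0.45), and class medians run from -0.08 to 0.19.

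Marker sums of other cell types overlapped between genotypes, and their part in the levels above was not tested. Erythroid precursors carry abundant Tfrc. Of 11 erythroid markers 10 were in the table, 1 had a mean signal of at least 10, and their sum was 19.8 to 91.5 in WT and 25.1 to 107 in KO libraries. Slc4a1 was at 0 in all 12 libraries, and Hba-a1, Hba-a2 and Hbb-bt had means under 1. Macrophages carry abundant ferritin. Of 7 macrophage markers 1 had a mean of at least 10, their sum was 20.5 to 56.8 in WT and 18.9 to 83.4 in KO libraries, and Adgre1, C1qa and C1qb had means under 1. The granulocyte list summed to 263 to 1766 in WT and 353 to 1926 in KO libraries through Mpo and Elane, with S100a8, S100a9, Ngp, Camp, Ltf and Lcn2 at means under 1. Sums for the B cell list were 38.2 to 198 in WT and 53.8 to 299 in KO libraries, for the T cell list 2.20 to 6.38 and 0.390 to 7.51, and for the megakaryocyte list 36.8 to 85.9 and 40.6 to 246.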

How the data were processed

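Total RNA of sorted LSK cells from 12 mice was enriched for mRNA, made into libraries with a CATS RNA-seq kit and sequenced on an Illumina instrument. The authors deposited 1 table of signal per gene and library, read from its name and values as estimated counts divided by a size factor per library. The submitters' processing notes name Kallisto, and the mouse build and annotation are not given in the sources used here. Columns were matched to libraries by their titles, and 0 columns were left unused.

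Signal was used as deposited. A gene was tested where its average over all 12 libraries reached 10, on log2(signal + 1) with limma 3.58.1 in R 4.3.3 (empirical Bayes with trend, two-sided, no covariate, Benjamini-Hochberg over 8887 genes). Folds are on that scale, which understates changes of low genes. Members also had exact permutation tests over the libraries. Tests made for counts were not used, since the values are not counts. Depth is known only approximately, at 1235086 to 2471271 reads per library. The code was tested on simulated data.

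Positions, transcript lengths, untranslated regions and shared 31-base stretches came from GENCODE M21 (GRCm38), in which all 35999 gene names were found. Genes sharing at least 20% of their stretches with a member were listed.

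The members and lists were chosen with earlier results of these data known. The text names all members, the most abundant tested gene of each pathway class and any gene of that list with an unadjusted p under 0.05, the 3 genes most like Tfrc, Fth1 and Gpx4, their pseudogenes and Fancg. Genes named for a low or zero signal and Lars2 were added after their values were seen. Some results under this rule are left out of the text. Alternatives covered the pseudocount, the filter, 4 scalings, the trend, a replicate block, each library left out, the fit without WT replicate 3 and KO replicate 7, and sums with pseudogenes. Sums with all genes sharing sequence and the approximate reads were added after seeing the data.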

Additional observations from a re-analysis of the deposited data

Results flagged for a closer look

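Of the 20 groups of 6 libraries examined for a library far from the rest (10 members in each genotype), 2 held one by Dixon's criterion at the 95% level, where chance alone would give 1. Ftl1 in WT replicate 6 had a signal of 207, against 158 to 176 in the other 5 WT libraries. Aifm2 in WT replicate 3 had a signal of 10.9, against 0.478 to 3.19 in the other 5.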

How the results depend on the processing

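The count of members with an unadjusted p under 0.05 stayed at 0 under all 23 alternatives, and so did that of all genes with an adjusted p under 0.05. The count of all genes with an unadjusted p under 0.05, 326 on the deposited scale, was 836 with no filter on low values (21536 genes tested) and 91 where the mean had to reach 50 (3119 genes tested), and 275 to 383 when each library was left out. The count of pathway genes rose from 0 to 1 with no filter (Blvra), with the replicate block (Fech), without WT replicate 3 and KO replicate 7 (Fech) and without WT replicate 3 (Fech) or 4 (Txnrd1), and was 0 to 1 over all libraries left out. Fech and Blvra are named after their values were seen. Directions turned for small differences. The log2 fold change of Ftl1 was 0.0307 when scaled to total signal, and with a library left out it ran from -0.132 to 0.0635, turning without WT replicate 6 (0.002), KO replicate 2 or KO replicate 3 (0.02). That of Ncoa4 was -0.0834 without WT replicate 3 and KO replicate 7, and with a library left out it ran from -0.0524 (without WT replicate 3) to 0.112, turning also without KO replicate 4 (-0.001). That of Gpx4 ran from -0.0198 (without KO replicate 6) to 0.322. Scaled to total signal, the correlation of Tfrc with Fth1 was 0.31 and that of Slc7a11 with Slc3a2 was 0.26, while Fth1 with Ftl1 rose to 0.86 and Ncoa4 with Fth1 to 0.87. Apart from the smaller or larger number of genes or libraries, the cause was not tested. The other 6 members tested kept their direction in all 12 fits with a library left out.

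The titles number the mice from 2 to 7 in both genotypes. Same-numbered libraries deviated together with a correlation above 0.1 in 4 of 6 pairs (mean of all 6 pairs 0.20, against -0.04 for different numbers). The pairs numbered 4 and 7 were just under that limit, at 0.091 and 0.086. Of the 12 libraries, 9 correlated best with their own number, which is a hint from the data and not from the design. Under the replicate block the unadjusted p fell below 0.05 for 476 genes, 0 of them members. The standard error of Gpx4 was 0.16 with the block and 0.26 without it, and that of Slc7a11 0.25 and 0.24. Gpx4 summed with its pseudogene exceeded WT in KO libraries in all 6 pairs of equal number (sign-flip test, exact p = 0.0312, the smallest that 6 pairs can give, not adjusted for the other members and sums tried). Depth limits Aifm2 and Slc7a11 most, at medians of about 2.47 and 12.2 reads per library.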
